A study of Homo sapiens with 19 samples.

Results

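The genes described here are the semaphorins of classes 3 to 7, their plexin and neuropilin receptors, the ephrins and Eph receptors, and the netrin, SLIT, ROBO and UNC5 genes of axon guidance. A gene was a member when it was listed as protein coding, carried one of these family names and was present in all 3 tables of the study. That gave 57 members of the 17886 genes listed in all 3 tables, out of 68 name matches in at least 1 table. They comprised 28 ligands, 27 receptors and 2 genes caught by the name alone, UNC50, a Golgi protein, and UNC5CL, an UNC5-like adaptor. The ligands were 4 A-type and 3 B-type ephrins, 6 class 3, 5 class 4, 1 class 5, 4 class 6 and 1 class 7 semaphorins, 3 netrins and 1 SLIT. The receptors were 7 EphA and 4 EphB kinases, 2 neuropilins, 4 plexins of type A, 3 of type B and 2 of types C and D, 4 ROBO genes and 1 UNC5 gene.

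All 19 libraries came from MDA-MB-231, an established line of triple-negative breast cancer with mesenchymal features. In the culture table, adherent cells (n = 2) were attached in DMEM with 10% FCS, and 16 h spheres (n = 2) and 5 d spheres (n = 2) floated in DMEM/F12 with B27, EGF at 20 ng/ml and FGF at 20 ng/ml. In the siRNA tables, cells were reverse transfected and kept 48 h in the sphere medium, with siSCIRT 1 or siSCIRT 2 against the control siRNA siNC (n = 3 each) and with siEZH2 against its own siNC (n = 2 each). SCIRT is a long noncoding RNA, and EZH2 is the catalytic subunit of the Polycomb repressive complex PRC2. Attachment, serum, growth factors and medium differed together between spheres and adherent cells, and their parts in any culture result cannot be told apart. In such bulk RNA, fewer cells that carry an RNA and less RNA per cell cannot be told apart either.

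Guidance proteins work as ligand and receptor pairs at cell surfaces. Ephrins are held in the membrane and bind Eph receptor tyrosine kinases on the neighbouring cell, the A ephrins through a lipid anchor and mostly to EphA receptors, the B ephrins as transmembrane proteins and mostly to EphB receptors. Secreted class 3 semaphorins mostly bind neuropilins, which pair with A plexins to signal, while semaphorins of the other classes bind plexins directly. SLIT proteins bind ROBO receptors and netrins bind DCC and UNC5 receptors, and in carcinoma cells all these systems are known for their effects on adhesion, repulsion and migration.

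Library totals were 6104222 to 14781941 reads in the culture table, 38635418 to 62218847 in the siSCIRT table and 27989577 to 38955312 in the siEZH2 table, and the shallower culture libraries had more counting error. Values are normalized counts, that is reads divided by the size factor of the library, unless a level per length is named. Folds are log2 fold changes of the normalized count plus 1 with the standard error of the limma fit, and calls were made at adjusted p under 0.05 (Benjamini-Hochberg over all genes of a table). Nothing in the labels tells whether replicates came from separate cultures, and p-values therefore reflect no more than the spread of these libraries, which may be technical. SCIRT, listed as RP5-1120P11.1, held 121, 112 and 127 with siSCIRT 1 and 159, 105 and 117 with siSCIRT 2, against 264, 287 and 256 with siNC, and EZH2 at 275 and 278 with siEZH2, against 518 and 529 with siNC. Of the markers of the line, VIM, CD44 and AXL summed to 45500 to 46100 in adherent cells, 70200 to 71400 at 16 h and 41200 to 42100 at 5 d. ESR1, CDH1 and EPCAM, which the line lacks or has little of, summed to 112 to 113, 24.4 to 25.6 and 82.8 to 102. PGR, chosen with these, was not listed in the culture table. Of 57 members, 20 share exon bases with another gene, 16 of them with one on the other strand, and the kit does not mark strand.

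For culture, 43 of the 57 members passed the filter of a mean of 10 normalized counts. The other 14 (SEMA3D, SEMA3G, SEMA6D, EFNB3, NTN5, EPHA6, EPHA7, EPHA10, EPHB3, EPHB6, PLXNA4, ROBO2, UNC5B and UNC5CL) had at most 26 reads in every culture library and were not tested there. At 16 h, 28 of the 43 were called, 18 higher and 10 lower than in adherent cells, where 53.9% of all 13789 genes tested were called, 27.4% higher and 26.5% lower. Ligands gave 10 higher and 6 lower of 23, and receptors 8 higher and 4 lower of 19. With a change of at least 2-fold as well, 10 members were higher and 4 lower, beside 8.54% and 8.6% of all genes. At 5 d, 25 of 43 were called, 16 higher and 9 lower, where 55.2% of all genes were called, 26.3% higher and 28.9% lower. Of these, 5 were higher and 3 lower by at least 2-fold, beside 7.68% and 6.95% of all genes. The median log2 fold change of the members was 0.35 at 16 h and 0.24 at 5 d, and that of all genes -0.01 and -0.02. The 16 h and 5 d comparisons share the adherent libraries, so that both move together with any error in those libraries, and their values are given side by side only. The plot of fold changes by role shows all 43 members.

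At 16 h the largest rises among all members were those of the ephrins EFNB2 and EFNA3. The 16 h spheres had more of all 4 A ephrins and of EFNB2, and by 5 d only EFNB2 and EFNA5 among the ephrins remained called above adherent cells. The 3 neighbouring genes EFNA4, EFNA3 and EFNA1, which follow each other on chromosome 1 with 0 coding genes between them, were all higher at 16 h than at the other 2 stages. Their promoters are shown beside that of EFNB2, the member with the largest rise, as RefSeq gives them on GRCh38.p14, from 250 bases before to 50 bases after the start of the gene in its own 5′ to 3′ direction. Capitals mark ACGTG or GCGTG on either strand (CACGT or CACGC where it reads from the other strand), the core to which hypoxia-inducible factors are known to bind. The windows are chr1:155063490-155063789 (plus strand) for EFNA4, chr1:155078587-155078886 (plus strand) for EFNA3, chr1:155127626-155127925 (plus strand) for EFNA1 and chr13:106535613-106535912 (minus strand) for EFNB2.
EFNA4: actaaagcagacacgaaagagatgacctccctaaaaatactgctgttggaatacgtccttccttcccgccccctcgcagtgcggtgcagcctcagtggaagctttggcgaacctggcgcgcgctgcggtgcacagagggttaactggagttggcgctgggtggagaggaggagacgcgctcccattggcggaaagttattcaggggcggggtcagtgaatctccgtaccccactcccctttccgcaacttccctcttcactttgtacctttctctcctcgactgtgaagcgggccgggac
EFNA3: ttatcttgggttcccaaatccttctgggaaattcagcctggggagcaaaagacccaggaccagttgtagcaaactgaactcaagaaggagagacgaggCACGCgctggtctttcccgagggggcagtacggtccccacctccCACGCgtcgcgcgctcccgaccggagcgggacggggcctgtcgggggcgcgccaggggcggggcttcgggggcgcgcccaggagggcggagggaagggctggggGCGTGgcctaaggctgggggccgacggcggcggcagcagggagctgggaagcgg
EFNA1: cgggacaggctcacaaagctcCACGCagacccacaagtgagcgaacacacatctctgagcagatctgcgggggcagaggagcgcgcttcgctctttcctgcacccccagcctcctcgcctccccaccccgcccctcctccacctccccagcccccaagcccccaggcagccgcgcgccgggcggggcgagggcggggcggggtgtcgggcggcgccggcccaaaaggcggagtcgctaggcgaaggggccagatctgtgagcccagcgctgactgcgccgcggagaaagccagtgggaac
EFNB2: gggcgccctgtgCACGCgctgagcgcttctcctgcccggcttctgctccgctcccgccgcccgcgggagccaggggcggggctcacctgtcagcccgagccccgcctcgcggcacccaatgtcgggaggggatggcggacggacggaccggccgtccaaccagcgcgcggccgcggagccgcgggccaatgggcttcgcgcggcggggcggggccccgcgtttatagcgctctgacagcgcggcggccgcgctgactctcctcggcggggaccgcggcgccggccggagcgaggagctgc

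The EFNA3 window held 3 matches, those of EFNA1 and EFNB2 1 each and that of EFNA4 0. Of all 35116 windows of this length, 48.4% held at least 1 match, and of the 72 windows of members 51.4%. The share was 52.4% of the 21 windows of members called higher at 16 h, 46.7% of 15 for those called lower and 47.4% of 19 for those not called. The letters are a description of the windows and no measure of binding.

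EFNB2, the B ephrin best known from arteries and as the ligand of EPHB4, stood at 170 and 172 normalized counts in adherent cells, 1210 and 1260 at 16 h and 1300 and 1150 at 5 d. Every sphere library was far above both adherent libraries, and the sphere times overlapped. The rise was 2.85 ± 0.08 at 16 h (7.19-fold, adjusted p = 3.08e-27) and 2.83 ± 0.08 at 5 d (7.12-fold, adjusted p = 6.26e-27, limma). An antisense gene shares 26.2% of the exon bases of EFNB2, and its reads cannot be told from those of EFNB2. EFNA5, an A ephrin of the nervous system, stood at 312 and 311 in adherent cells, 804 and 783 at 16 h and 550 and 570 at 5 d. It rose by 1.35 ± 0.09 at 16 h (adjusted p = 3.7e-16), and at 5 d by 0.85 ± 0.09 (adjusted p = 1.51e-10), and the 3 stages did not overlap.

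EFNA1, the main ligand of EPHA2, stood at 92.1 and 83.4 in adherent cells, 194 and 258 at 16 h and 77.6 and 75.5 at 5 d. It was highest at 16 h, where it rose by 1.34 ± 0.19 against adherent cells (adjusted p = 2.53e-07), and at 5 d its difference from adherent cells of -0.19 was not called. EFNA3 was low in adherent cells, at 9.06 and 10.4, and stood at 56.5 and 45.2 at 16 h and 19.7 and 15.4 at 5 d. Its rise at 16 h was 2.27 ± 0.41 (4.82-fold, adjusted p = 1.43e-05), and 44.7% of its exon bases also belong to a readthrough gene that spans EFNA4 and EFNA3. EFNA4, at 43 and 20.7, 56.5 and 52.5, and 32.1 and 18.5 over the same 3 stages, rose by 0.84 ± 0.36 at 16 h (adjusted p = 0.0456), a call lost in 5 of the alternatives, and without the second adherent library the change was 0.33 (adjusted p = 0.574). EFNB1, a B ephrin of epithelia and craniofacial tissue, held 65.7 and 57.8 in adherent cells, 78.9 and 79.4 at 16 h and 58 and 46.2 at 5 d, and was not called against adherent cells at either time.

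**Figure D1:**
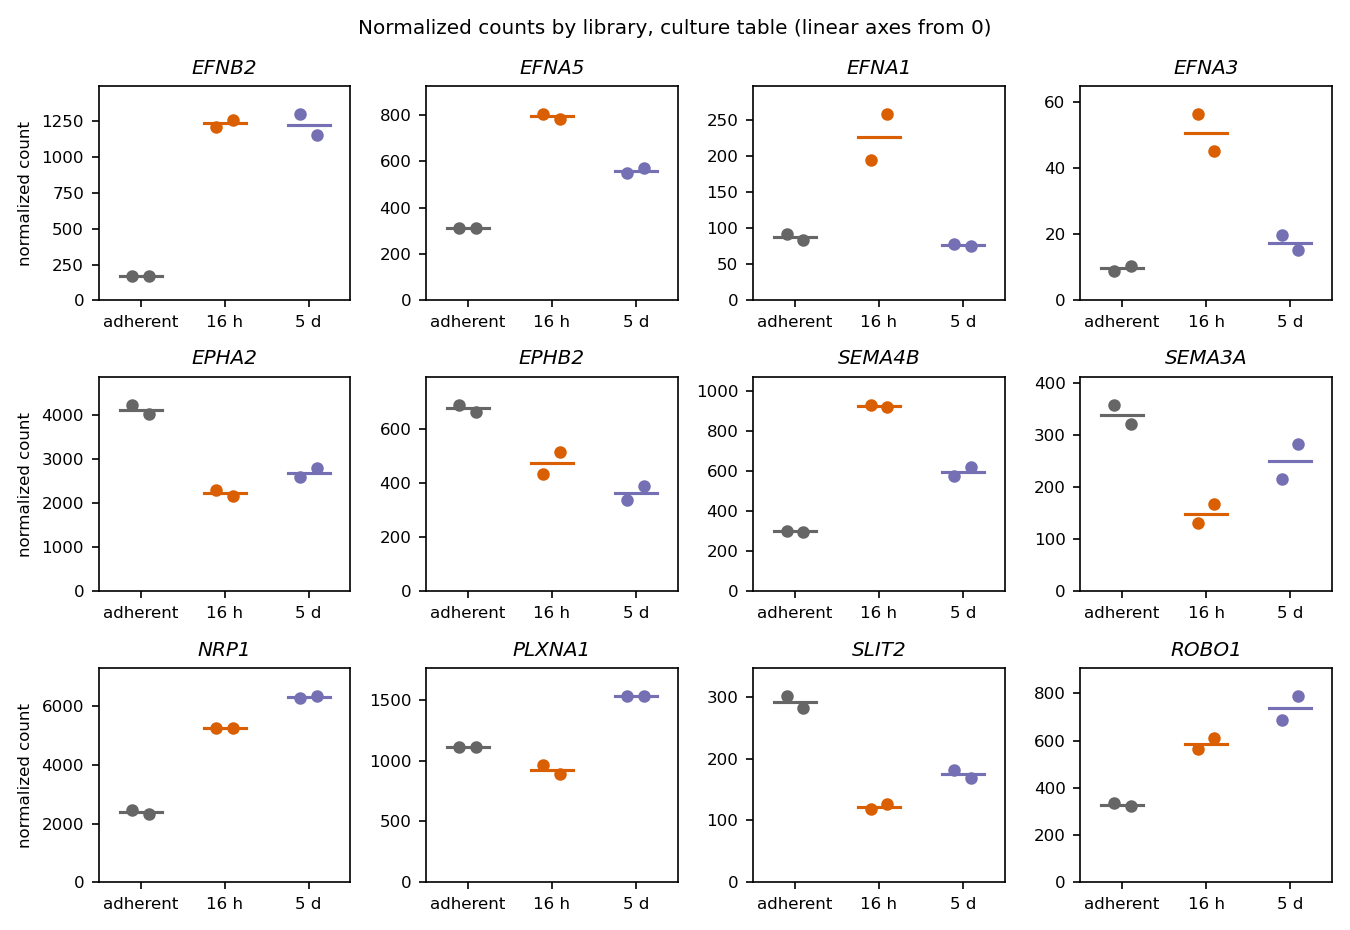
Normalized counts of 12 members in each culture library, adherent cells, 16 h spheres and 5 d spheres from left to right on linear axes that start at 0; points are libraries and lines are means (n = 2). EFNA1 and EFNA3 peak at 16 h, EFNB2 and NRP1 stay high at 5 d, and EPHA2, EPHB2, SLIT2 and SEMA3A lie below their adherent level at both times.

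The Eph receptors were dominated by EPHA2, and it fell. EPHA2, a kinase abundant in many carcinomas, stood at 4220 and 4010 in adherent cells, 2290 and 2170 at 16 h and 2590 and 2790 at 5 d. It fell by 0.88 ± 0.04 on the log2 scale in 16 h spheres (adjusted p = 2.94e-20), and at 5 d by 0.61 ± 0.04 (adjusted p = 2.52e-15). EPHB2, a receptor of the B ephrins, stood at 690 and 664 in adherent cells, 434 and 517 at 16 h and 339 and 390 at 5 d. It fell by 0.51 ± 0.10 at 16 h (adjusted p = 2.39e-05), and at 5 d by 0.90 ± 0.10 (adjusted p = 5.34e-10). For both receptors every sphere library lay below both adherent libraries.

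EPHA4, which binds ephrins of both types, went the other way, with 106 and 84.6 in adherent cells, 243 and 220 at 16 h and 143 and 186 at 5 d. It rose by 1.28 ± 0.17 at 16 h (adjusted p = 6.41e-08), and at 5 d by 0.78 (adjusted p = 0.000222). EPHB4, the usual partner of EFNB2, was called at neither time, with 397 and 430 in adherent cells, 508 and 419 at 16 h and 484 and 453 at 5 d. EPHA1 held 217 and 189 in adherent cells, 256 and 234 at 16 h and 177 and 191 at 5 d, and was not called against adherent cells. It shares 82 exon bases with ZYX on the other strand, which averaged 1700, 1880 and 1550 at these stages. EPHA1 had 124 to 311 reads in culture libraries, but 19 to 42 in the deeper siSCIRT table and 16 to 36 in the siEZH2 table. The part of ZYX reads in its culture values was not tested. EPHA5, a neuronal receptor, was low, at 21.1 and 20.1, 11.7 and 11, and 41.4 and 41.6 over the 3 stages. Its rise of 0.98 ± 0.40 at 5 d (adjusted p = 0.0387) was lost in 6 alternatives, with an adjusted p of 0.0929 to 0.165 without any 1 of the 4 libraries compared.

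Levels summed over a family were set as RPKM, that is per kilobase of exon and scaled to the library total, which allows genes to be added. The summed ephrins stood at 20.6 and 18.4 in adherent cells, 52.0 and 53.9 at 16 h and 47.4 and 42.0 at 5 d. The summed Eph receptors stood at 132 and 127 in adherent cells, 70.0 and 66.0 at 16 h and 84.7 and 89.6 at 5 d. Ephrin sums were thus higher and Eph sums lower in each sphere library than in each adherent one. EFNB2 supplied 18.1 and 20.6% of the ephrin sum in adherent cells, 43.1 and 43.2% at 16 h and 58.8 and 57.8% at 5 d. EPHA2 supplied 84.8 and 84.5% of the Eph sum in adherent cells, 73.2 and 73.5% at 16 h and 79.1 and 79.6% at 5 d. The RPKM scale runs lower at 16 h than the size factors do, since the normalized counts of a library summed to about 10700000 and 10800000 there and about 9000000 in both adherent libraries. All 28 calls at 16 h and all 25 at 5 d kept their direction on the RPKM scale. The sums were not tested.

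**Figure D2:**
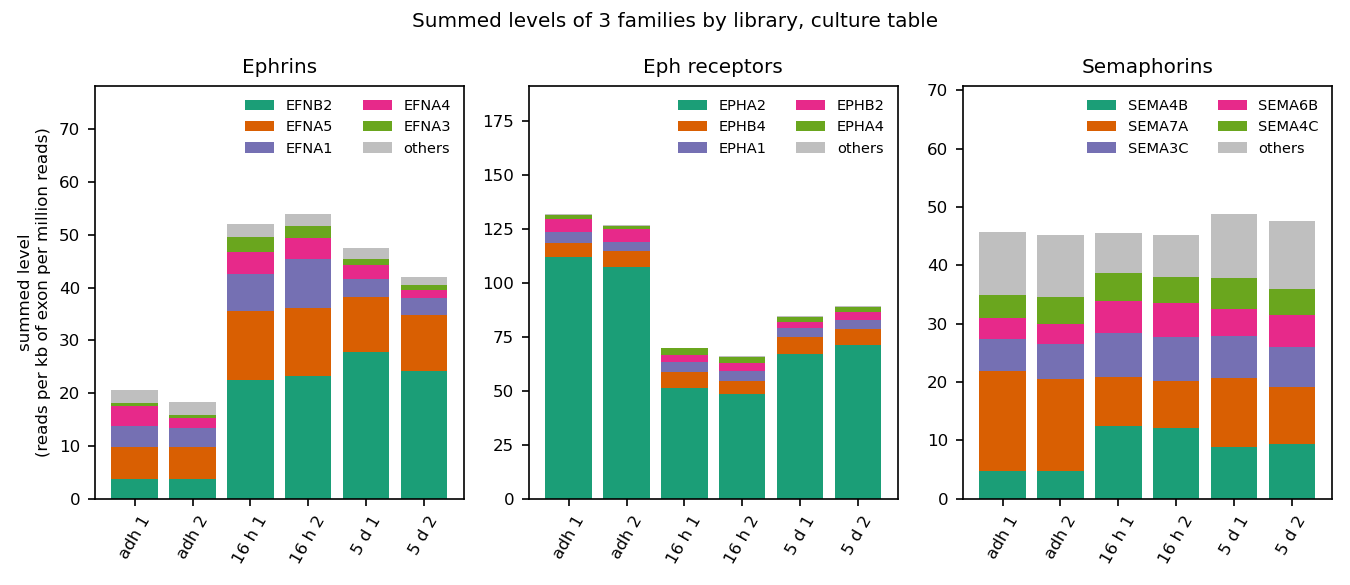
Summed level of ephrins, Eph receptors and semaphorins in each culture library, in RPKM (per kilobase of exon, scaled to the library total), as stacked bars of the leading members. Spheres have taller ephrin bars and shorter Eph bars than adherent cells, and the semaphorin bars are of nearly equal height, between 45.2 and 48.8.

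On the RPKM scale, which runs lower at 16 h than the size factors do, the semaphorins changed in make-up more than in sum. Their summed level per length stood at 45.7 and 45.3 in adherent cells, 45.6 and 45.2 at 16 h and 48.8 and 47.6 at 5 d. SEMA7A, a lipid-anchored ligand of PLXNC1 and of beta 1 integrin, supplied 37.8 and 34.9% of it in adherent cells, 18.5 and 17.6% at 16 h and 24.2 and 20.3% at 5 d. SEMA4B, a membrane semaphorin, supplied 10.3 and 10.5%, 27.2 and 27.0%, and 18.1 and 19.9% over the same stages.

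Of the secreted class 3 ligands, SEMA3A, SEMA3E and SEMA3F fell at 16 h and SEMA3C rose. SEMA3A, the prototype repellent that binds NRP1 with A plexins, stood at 358 and 321 in adherent cells, 132 and 167 at 16 h and 216 and 283 at 5 d. It fell by 1.18 ± 0.15 at 16 h (adjusted p = 7.84e-09), and at 5 d by 0.45 ± 0.15 (adjusted p = 0.00829), with no overlap between spheres and adherent cells. The 5 d call was lost without the first adherent library (-0.37, adjusted p = 0.114) or the first 5 d library (-0.26, adjusted p = 0.179). SEMA3E, which binds PLXND1 without a neuropilin, stood at 70.9 and 54.2 in adherent cells, 4.26 and 2.44 at 16 h and 11.4 and 23.1 at 5 d. The 16 h values rest on 4 and 2 reads, so the log2 fold change of -3.89 ± 0.49 (14.8-fold lower, adjusted p = 1.21e-08) is loosely measured, and the fall at 5 d was 1.87 ± 0.49 (adjusted p = 0.00135), or 1.68 without the first adherent library (adjusted p = 0.0647).

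SEMA3F, a ligand of NRP2, stood at 53.6 and 43.8, 20.3 and 15.9, and 17.6 and 30.8 over the 3 stages and fell at both times, by 1.39 ± 0.38 at 16 h (adjusted p = 0.00196), and at 5 d by 1.02 ± 0.38 (adjusted p = 0.0199). Without the first adherent library neither was called (adjusted p = 0.0505 and 0.18), and the 5 d call was also lost without the second adherent library (adjusted p = 0.0604) or the first 5 d library (adjusted p = 0.19). An antisense gene that overlaps SEMA3F averaged 80.7 counts in adherent cells, 100 at 16 h and 85.6 at 5 d, and without strand its reads cannot be told from those of SEMA3F where they overlap. SEMA3C, the ligand of class 3 best known from heart outflow development, stood at 306 and 336, 509 and 509, and 422 and 405. It rose by 0.67 ± 0.10 at 16 h (adjusted p = 4.18e-07), and at 5 d by 0.37 (adjusted p = 0.00196), or by 0.30 at 5 d without the first adherent library (adjusted p = 0.0547).

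Of the membrane semaphorins of classes 4 and 6, SEMA4B, SEMA4D, SEMA6B and SEMA4C rose at 16 h and the other 4 of 8 tested were not called, a share of calls near the 53.9% of all genes. SEMA4B stood at 300 and 299 in adherent cells, 931 and 922 at 16 h and 575 and 622 at 5 d. Its rise was 1.63 ± 0.09 at 16 h (3.09-fold, adjusted p = 6.64e-19) and 1.00 ± 0.09 at 5 d (adjusted p = 1.32e-12). SEMA4D, the ligand of PLXNB1 also known as CD100 on T cells, stood at 173 and 167, 397 and 387, and 451 and 504, and rose by 1.20 ± 0.11 (adjusted p = 1.23e-11) and by 1.48 ± 0.11 (2.8-fold, adjusted p = 4.97e-14). Spheres lay above adherent cells in every library for both genes.

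SEMA6B, a class 6 ligand of A plexins, stood at 146 and 135, 259 and 275, and 190 and 230 and rose by 0.92 ± 0.15 at 16 h (adjusted p = 1.31e-06), and at 5 d by 0.57 (adjusted p = 0.00108). SEMA4C, a ligand of PLXNB2, rose only slightly at 16 h, by 0.35 ± 0.13 (adjusted p = 0.0183), with 313 and 298 there against 223 and 258 in adherent cells. That call was lost without the first adherent library (0.24, adjusted p = 0.238) or the first 16 h library (0.31, adjusted p = 0.102). SEMA7A fell, with 593 and 541 in adherent cells, 345 and 325 at 16 h and 418 and 345 at 5 d (by 0.76 ± 0.10, adjusted p = 7.99e-08, and by 0.58 ± 0.10, adjusted p = 1.19e-05). SEMA5A, a ligand of PLXNB3, was near the filter, at 12.1 and 23.7, 9.59 and 9.77, and 2.07 and 4.62, and fell at 5 d by 2.11 ± 0.64 (adjusted p = 0.00492), or by 1.65 without the second adherent library (adjusted p = 0.164). SEMA5A passed the filter, at a mean of 10.3, only through its adherent values, since every sphere value was under 10. Its fall is therefore partly set by the filter and is given as a description only. SEMA4F was called only between the sphere times, and SEMA4G, SEMA6A and SEMA6C in no culture comparison.

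NRP1, the neuropilin shared by SEMA3A and VEGFA, rose at both times. It stood at 2450 and 2320 in adherent cells, 5250 and 5270 at 16 h and 6280 and 6350 at 5 d. It rose by 1.14 ± 0.03 at 16 h (adjusted p = 4.37e-27), and at 5 d 2.65-fold (adjusted p = 7.84e-30), and the 3 stages did not overlap. An antisense gene shares 4.87% of the exon bases of NRP1, and without strand its reads cannot be told from those of NRP1 where they overlap. Its counts were 221 and 210 in adherent cells, 545 and 464 at 16 h and 690 and 681 at 5 d. In the deeper siRNA tables it held 0.956 to 16 counts, where NRP1 averaged 39000 (siSCIRT table) and 19200 (siEZH2 table). Whether its culture counts are reads of NRP1 was not tested. NRP2, the receptor of SEMA3F, was not called, at 138 and 133 in adherent cells, 174 and 126 at 16 h and 118 and 114 at 5 d. NRP1 made up 95.5% of the neuropilin sum per length in both adherent libraries, 97.3 and 98.1% at 16 h and 98.5% in both 5 d libraries.

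Plexins moved apart. PLXNB3, a receptor of SEMA5A, stood at 23.4 and 35.9 in adherent cells, 124 and 129 at 16 h and 88 and 105 at 5 d, and rose by 2.09 ± 0.25 (4.25-fold, adjusted p = 3.46e-09) and 1.69 ± 0.25 (adjusted p = 3.17e-07). Of its exon bases, 20.4% also belong to SRPK3. PLXND1, the receptor of SEMA3E, stood at 549 and 536, 1020 and 1160, and 855 and 778, and rose by 1.01 ± 0.08 (adjusted p = 3.13e-14) and 0.59 (adjusted p = 2.67e-08). PLXNA2 and PLXNA3, partners of neuropilins, rose by 0.79 ± 0.10 and 0.98 ± 0.10 at 16 h (adjusted p = 1.51e-08 and 7.72e-11) and by 0.90 and 0.57 at 5 d.

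PLXNA1, the most abundant A plexin, lay below adherent cells at one sphere time and above them at the other. It stood at 1110 and 1110 in adherent cells, 960 and 890 at 16 h and 1530 and 1530 at 5 d. It fell by 0.27 ± 0.06 at 16 h (adjusted p = 0.000265) and rose by 0.46 ± 0.06 at 5 d (adjusted p = 3.23e-08). PLXNB2, the receptor of SEMA4C and the largest plexin per length, fell by 0.21 ± 0.05 at 16 h (adjusted p = 0.000667), and at 5 d by 0.15 ± 0.05 (adjusted p = 0.0135), with 1780 and 1700 in adherent cells, 1500 and 1500 at 16 h and 1620 and 1520 at 5 d. Its 5 d call was lost without the first adherent library (adjusted p = 0.169) or the second 5 d library (adjusted p = 0.135). PLXNB1, at 9.81 to 21.3, and PLXNC1, at 17.4 to 52.4 over the 6 libraries, were low and not called.

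SLIT2, the secreted ligand of ROBO receptors, stood at 301 and 281 in adherent cells, 119 and 126 at 16 h and 182 and 168 at 5 d. It fell by 1.24 ± 0.15 at 16 h (adjusted p = 4.59e-09), and at 5 d by 0.73 ± 0.15 (adjusted p = 7.09e-05). ROBO1, its receptor, stood at 336 and 323, 564 and 611, and 687 and 789. ROBO1 rose by 0.83 ± 0.09 at 16 h (adjusted p = 5.2e-10), and at 5 d by 1.16 ± 0.09 (adjusted p = 1.17e-13), so that in every sphere library the ligand was lower and the receptor higher than in every adherent library. ROBO4, known from endothelium, also rose, by 0.46 ± 0.11 at 16 h (adjusted p = 0.000423), and at 5 d by 0.39 (adjusted p = 0.00254, or 0.0626 without the first adherent library), and ROBO3 was not called. NTN4, a netrin related to laminins and the main netrin here, fell by 0.19 ± 0.07 at 16 h (adjusted p = 0.0197), with 874 and 820 there against 1030 and 905 in adherent cells, and was not called without the first adherent library (adjusted p = 0.424) or the second 16 h library (adjusted p = 0.169). It held 989 and 1010 at 5 d, and NTNG2 and UNC50 were not called in any culture comparison.

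Between the sphere times, 24 of 43 members were called, 11 higher and 13 lower at 5 d than at 16 h, where 48.3% of all genes were called, 22.8% higher and 25.5% lower. At least 2-fold changes were seen in 2 higher and 3 lower members, beside 5.22% and 4.98% of all genes. All 4 A ephrins fell, EFNA1 by 1.53 ± 0.19 (2.9-fold, adjusted p = 2.7e-08), EFNA3 by 1.48 ± 0.41 (adjusted p = 0.00317), EFNA4 by 1.13 ± 0.36 (adjusted p = 0.00914) and EFNA5 by 0.50 ± 0.09 (adjusted p = 9.21e-06). EFNB1 fell by 0.60 ± 0.25 (adjusted p = 0.0458), a call lost in 7 alternatives. EPHA1 fell by 0.41 ± 0.14 (adjusted p = 0.0154), SEMA4B by 0.63 ± 0.09 (adjusted p = 1.02e-07) and EPHB2 by 0.38 (adjusted p = 0.00135). ZYX, which overlaps EPHA1 on the other strand, averaged 1880 at 16 h and 1550 at 5 d. Higher at 5 d were SEMA3E by 2.02 ± 0.49 (adjusted p = 0.00074), EPHA5 by 1.78 ± 0.40 (adjusted p = 0.000365), PLXNA1 by 0.73 ± 0.06 (adjusted p = 7.71e-13), SEMA3A by 0.73 ± 0.15 (adjusted p = 6.89e-05), SEMA4F by 0.65 ± 0.20 (adjusted p = 0.00624), SLIT2 by 0.51 and EPHA2 by 0.27 ± 0.04 (adjusted p = 1.38e-06). EPHA2, SEMA3A, SEMA3E and SLIT2 thus moved back part of the way towards the adherent level. These values share the 16 h libraries with the fall at 16 h. Leaving out 1 library ended 10 of the 24 calls, and of those named here it ended those of EPHA1 (adjusted p = 0.0683 to 0.102, without the first library of either time), EPHB2 (0.0776, without the second 16 h library), EFNB1 (0.11 to 0.213, without either 16 h library or the second 5 d one) and EFNA4 (0.0721 without the first 16 h library and 0.121 without the second 5 d one).

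The summed markers of fibroblasts were higher at 16 h than at the other culture stages, mostly through DCN. The sum of DCN, LUM, PDGFRA and COL1A1, all 4 listed, was 37.0 to 59.0 in adherent cells, 1090 in both 16 h libraries and 54.9 to 57.0 at 5 d. DCN made up most of it, with 0 and 0.609 in adherent cells, 1010 and 999 at 16 h and 8.28 and 6.16 at 5 d, and PDGFRA was at 0 at 5 d. Of 6 neuronal markers 3 were listed in the culture table (not NEFL, RBFOX3 and SNAP25). These summed to 71.7 to 77.9 in adherent cells, 50.2 to 56.2 at 16 h and 44.7 to 58 at 5 d. Of 4 endothelial markers only VWF was listed (not CDH5, PECAM1 and TEK), at no more than 3.08. The fibroblast sum was 1020 to 1240 in the siSCIRT table and 399 to 650 in the siEZH2 table, and so was not high at 16 h alone. The part of the fibroblast markers in the 16 h results was not tested.

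Of 82 further genes of these pathways (co-receptors, other ligands, intracellular effectors and proteases), 65 were tested in the culture table. At 16 h 22 were higher and 22 lower, where 53.9% of all genes were called, and at 5 d 23 were higher and 19 lower, where the share was 55.2%. Of the 5 other ligands tested, 2 rose and 2 fell at 16 h. VEGFA, the angiogenic growth factor that NRP1 also binds, rose by 1.77 ± 0.03 (adjusted p = 6.22e-33), with a mean of 7740 at 16 h against 2270 in adherent cells. PGF, a related growth factor, averaged 849 against 192. VEGFC, a lymphatic growth factor, fell by 0.66 (900 against 1430) and RGMB, a ligand of neogenin, by 0.24 (714 against 847). FLT1, a receptor of VEGFA and PGF, averaged 5.19 against 61.1 and fell by 3.34. KDR, the main VEGFA receptor, averaged 343 against 181. ITGB1, the beta 1 integrin bound by SEMA7A, averaged 16000 against 9350 and rose by 0.78. MET, which associates with B plexins, fell by 0.91, with 1150 against 2160. Of 43 effectors, 15 rose and 12 fell at 16 h, among them RRAS, a GTPase that plexins inactivate, which rose by 1.62, and LIMK2, a kinase of the actin regulator cofilin, which fell by 1.89.

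After SCIRT silencing all 57 members passed the filter. With the mean of both siRNAs against siNC, 17 were called, 12 higher and 5 lower, where 14.4% of all 16607 genes were called, 6.82% higher and 7.58% lower. Ligands gave 6 higher and 1 lower, and receptors 6 higher and 4 lower. With siSCIRT 1 alone 11 were higher and 5 lower (10.2% of all genes called, 4.63% higher and 5.56% lower), and with siSCIRT 2 alone 12 higher and 2 lower (9.54%, 4.49% higher and 5.05% lower). Both siRNAs share the siNC libraries, and their values are therefore set side by side only. The median log2 fold change over the members was 0.08, against 0.01 over all genes, and none of the 12 rises reached 2-fold. The count for the mean was 11 without the first siNC library, that of siSCIRT 1 was 10 without its library 2 or 3, and that of siSCIRT 2 was 8 without its library 3 or siNC library 1 and 9 without siNC library 3. Among the families, 3 of 4 class 6 semaphorins, 2 of 3 B plexins, 2 of 4 EphB receptors and 2 of 5 class 4 semaphorins rose. The B ephrins gave 1 of 3, and the A plexins and ROBO receptors 1 of 4 each. No rise was called among 7 EphA receptors, 6 class 3 semaphorins, 4 A ephrins, 3 netrins or in any smaller family. Over all genes 6.82% rose, and 1 EphB receptor, EPHB6, fell.

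SEMA6D, a class 6 ligand of PLXNA1, stood at 174, 173 and 233 with siSCIRT 1 and 192, 206 and 172 with siSCIRT 2, against 83.9, 128 and 138 with siNC. All 6 knockdown libraries lay above the 3 controls, and the mean rise was 0.73 ± 0.17 (adjusted p = 0.00753), or 0.52 without the first siNC library (adjusted p = 0.0568). EFNB3, a B ephrin of the midline and of neurons, stood at 246, 266 and 244 and at 255, 239 and 266, against 176, 145 and 148 with siNC, and rose by 0.69 ± 0.11 (adjusted p = 0.000606). SEMA4F, a class 4 semaphorin of neurons, stood at 913, 863 and 915 and at 976, 946 and 918, against 653, 577 and 608 with siNC, a rise of 0.59 ± 0.07 (adjusted p = 6.45e-05). In each of these the knockdown and control libraries did not overlap.

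SEMA6C stood at 392, 431 and 438 with siSCIRT 1 and 433, 457 and 422 with siSCIRT 2, against 265, 313 and 289 with siNC (0.57 ± 0.09, adjusted p = 0.00064), and SEMA6A rose by 0.49 ± 0.10 (adjusted p = 0.00538). SEMA4D rose by 0.24 ± 0.07 (adjusted p = 0.0414), but its libraries overlapped, with 2760 to 3250 for siSCIRT 1 and 2940 to 3410 for siSCIRT 2, against 2480 to 2900 for siNC. It was called with siSCIRT 2 alone (0.29, adjusted p = 0.0466) and not with siSCIRT 1 alone (0.19, adjusted p = 0.184). Its call for the mean was lost without siNC library 1 or 3 or library 2 or 3 of either siRNA (adjusted p = 0.0762 to 0.198). Among receptors, PLXNA3 stood at 8260, 8800 and 8570 and at 8650, 8070 and 9450, against 6310, 6470 and 6260 with siNC, a rise of 0.44 ± 0.06 (adjusted p = 0.000106). PLXNB2 stood at 13100, 14000 and 13000 and at 14200, 14300 and 14900, against 10700, 10400 and 10000 with siNC, a rise of 0.42 ± 0.05 (adjusted p = 7.96e-05). PLXNB3 rose by 0.36 ± 0.07 (adjusted p = 0.00294), ROBO1 by 0.33 ± 0.08 (adjusted p = 0.00817, or 0.0596 and 0.0529 without the first and the third siNC library), EPHB4 by 0.32 ± 0.06 (adjusted p = 0.00121) and EPHB2 by 0.30 ± 0.06 (adjusted p = 0.00453).

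Of the 5 falls, that of EPHB6, an Eph receptor without kinase activity, was the largest and rested on few counts. EPHB6 stood at 34.3, 32.2 and 31.2 with siSCIRT 1 and 49.9, 48.3 and 46.6 with siSCIRT 2, against 81.2, 61.6 and 121 with siNC, a fall of 1.08 ± 0.22 (adjusted p = 0.0034). EPHB6, PLXNA1, NRP2 and SEMA7A were called with siSCIRT 1 alone (-1.35, -0.32, -0.31 and -0.50) and not with siSCIRT 2 alone (-0.80, -0.16, -0.25 and -0.16). The siSCIRT 1 call of NRP2 was lost in 8 of 14 alternatives. EPHA2 was called with each, but its siSCIRT 2 call was lost in 6 of 14 alternatives. SEMA3C, at 6420, 6410 and 6220 with siSCIRT 1 and 5580, 5960 and 6050 with siSCIRT 2, against 6680, 6640 and 7160 with siNC, fell with siSCIRT 2 alone (-0.22 ± 0.06, adjusted p = 0.0346), a call lost without any 1 of the 6 libraries compared other than the second siNC library. EPHA2 stood at 19800, 20400 and 19600 and at 21300, 21100 and 20600, against 25700, 23000 and 25300, and fell by 0.27 ± 0.05 (adjusted p = 0.00386). PLXNA1 stood at 21200, 24500 and 22900 and at 24200, 25200 and 26900, against 28800, 27000 and 29700, and fell by 0.24 ± 0.06 (adjusted p = 0.0159), below the controls in every library; without the first or the third siNC library its adjusted p was 0.0686 and 0.0986. NRP2 fell by 0.28 ± 0.08 (adjusted p = 0.0224), and its adjusted p was 0.0532 to 0.0899 without any 1 siNC library. SEMA7A stood at 1960, 1650 and 1590 with siSCIRT 1 and 2400, 1980 and 2200 with siSCIRT 2, against 2670, 2380 and 2330 with siNC. Its fall of 0.33 ± 0.08 (adjusted p = 0.0116) came with overlap between siSCIRT 2 and siNC, and without the first siNC library it was 0.27 (adjusted p = 0.0782).

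EFNB2, NRP1, SLIT2 and SEMA4B, which changed strongly in culture, were not called here. EFNB2 stood at 5060, 5190 and 5280 with siSCIRT 1 and 5010, 5680 and 5640 with siSCIRT 2, against 5280, 5320 and 5040 with siNC. NRP1 stood at 35000, 40000 and 39800 and at 37000, 41400 and 42300, against 35700, 40900 and 38900. SLIT2 held 6350 to 8480 in knockdown libraries against 6700 to 7590 in controls, SEMA4B 13300 to 15300 against 12600 to 14900, and NTN4, the main netrin, held 4360 to 4960 in knockdown libraries against 4540 to 4630 in controls. Of the sum per length of all plexins, PLXNA1 supplied 30.7 to 31.7% with siSCIRT 1 and 31.9 to 32.7% with siSCIRT 2, against 39.4 to 41.1% with siNC. EPHA2 supplied 78.5 to 79.2% and 78.8 to 79.4% of the Eph sum, against 83.2 to 85.2%. Of the 72 further pathway genes tested, 10 were higher and 4 lower with the mean of both siRNAs, where 14.4% of all genes were called, among them VEGFA (0.40) and L1CAM (0.42), an adhesion molecule that pairs with NRP1, both higher, and ITGB1 (-0.34).

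**Figure D3:**
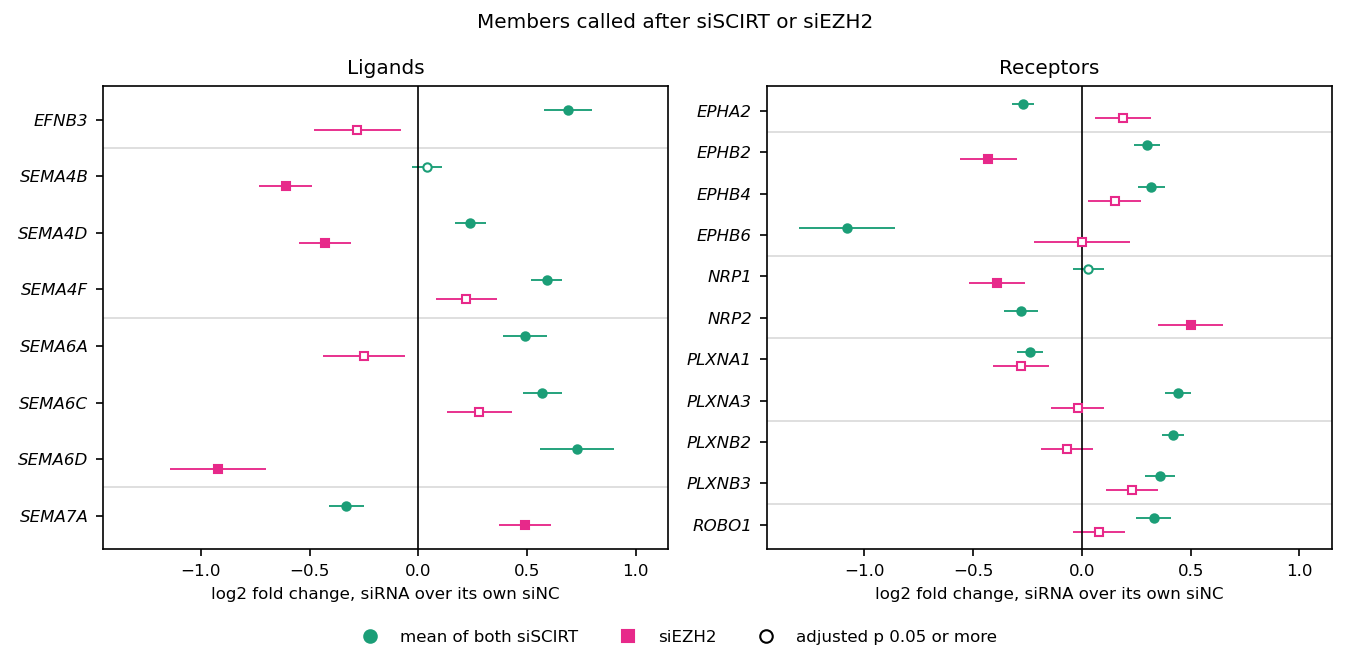
Log2 fold change (± SE of the limma fit) against the siNC control of the same table for the members called after SCIRT silencing (mean of siSCIRT 1 and siSCIRT 2) or after EZH2 silencing; open symbols have an adjusted p of 0.05 or more. SEMA6D stands at 0.73 after SCIRT silencing and at -0.92 after EZH2 silencing, and SEMA7A at -0.33 and 0.49.

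Between siSCIRT 1 and siSCIRT 2, limma called 0 members, and 6 (10.5%) had an unadjusted p under 0.05, beside 2.72% of all genes. edgeR and DESeq2 called 0 members as well, and 0% of all genes were called by limma. EPHB6 was lower in every siSCIRT 1 library than in every siSCIRT 2 library, and so was SEMA7A, without a call for either.

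After EZH2 silencing 56 members passed the filter and SEMA3E did not. Of these 7 were called, 2 higher and 5 lower than with siNC, where 6.84% of all 15823 genes were called, 3.9% higher and 2.94% lower, and 17 members (30.4%) had an unadjusted p under 0.05, beside 18.8% of all genes. Ligands gave 1 higher and 3 lower, receptors 1 higher and 2 lower. The median log2 fold change was -0.06 over the members and 0.01 over all genes. With 2 libraries a group the calls depend on single libraries, and without the first siNC library 1 call, that of SEMA4B, was left. The count was 4 without the second siNC library and 11 without the second siEZH2 library.

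SEMA4B, which supplied 38.4 and 42.4% of the semaphorin sum per length with siNC, stood at 7310 and 8780 with siEZH2 against 11300 and 13100 with siNC, a fall of 0.61 ± 0.12 (adjusted p = 5.44e-05). SEMA6D stood at 58.5 and 57 against 130 and 92.7 and fell by 0.92 ± 0.22 (adjusted p = 0.00121). SEMA4D stood at 1530 and 1540 against 1990 and 2160 and fell by 0.43 ± 0.12 (adjusted p = 0.0104). In all 3 genes both siEZH2 libraries lay below both controls. SEMA7A was higher, with 2960 and 3270 against 2020 and 2420, by 0.49 ± 0.12 (adjusted p = 0.00145). Without the first siNC library the adjusted p was 0.289 for SEMA6D, 0.293 for SEMA7A and 0.0964 for SEMA4D, and without the second siNC library that of SEMA4D was 0.273.

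Of the receptors, EPHB2 stood at 928 and 1090 with siEZH2 against 1290 and 1420 with siNC, a fall of 0.43 ± 0.13 (adjusted p = 0.0158). NRP1 stood at 16900 and 16200 against 22900 and 20700 and fell by 0.39 ± 0.13 (adjusted p = 0.031), while NRP2 stood at 373 and 437 against 267 and 305 and rose by 0.50 ± 0.15 (adjusted p = 0.0186). EPHB2 and NRP1 lost their calls without the first siNC library (adjusted p = 0.11 and 0.299) or the first siEZH2 library (0.152 and 0.113), EPHB2 without the second siNC library (0.333) and NRP1 without the second siEZH2 library (0.199). NRP2 lost its call without either siNC library or the second siEZH2 library (adjusted p = 0.0679 to 0.393). The neuropilins thus moved apart, and their sum per length was 43 and 40.9 with siEZH2 against 61.3 and 52.7 with siNC. EFNB2, with 2880 and 2800 against 3090 and 2930, EPHA2, with 19700 and 23100 against 18800 and 18700, and PLXNA1, with 14200 and 17400 against 19700 and 18500, were not called. Of 70 further pathway genes tested, 6 were higher and 2 lower, where 6.84% of all genes were called, among them CHN1 (0.82), a Rac GTPase-activating protein downstream of EPHA4, and DPYSL3 (0.59), a relative of the SEMA3A effector CRMP2, both higher, and ITGA1 (-0.46).

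In both siRNA tables, 5 members were called, and all 5 moved in opposite directions. They were 29.4% of the 17 called after SCIRT silencing and 71.4% of the 7 called after EZH2 silencing. Over all genes, 401 were called in both tables (17% of 2362 and 37.5% of 1070), and 363 of them, or 90.5%, moved in opposite directions. EPHB2, SEMA6D and SEMA4D were higher after SCIRT silencing and lower after EZH2 silencing, and SEMA7A and NRP2 lower and higher. EZH2 itself stood at 1670, 1740 and 1840 with siSCIRT 1 and 1840, 1850 and 1670 with siSCIRT 2. With the siNC of that table it stood at 2600, 2280 and 2700. The part of EZH2 in the responses to siSCIRT was not tested. The difference between the responses, tested in 1 limma fit over both tables with each response against its own siNC, was called for 15 of 56 members, where 15% of 15369 genes were called. It was 0.73 ± 0.12 for EPHB2 (adjusted p = 0.000292), 1.65 ± 0.28 for SEMA6D (adjusted p = 0.000357), -0.83 ± 0.14 for SEMA7A (adjusted p = 0.000386), 0.67 ± 0.13 for SEMA4D (adjusted p = 0.000894) and -0.78 ± 0.15 for NRP2 (adjusted p = 9e-04). This fit was added after the data were seen, and the tables came from separate experiments. It was repeated with edgeR only, and no library was left out of it. Without the first siNC library, the siEZH2 changes were -0.50 for EPHB2, -0.67 for SEMA6D, 0.36 for SEMA7A, -0.49 for SEMA4D and 0.40 for NRP2.

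**Figure D4:**
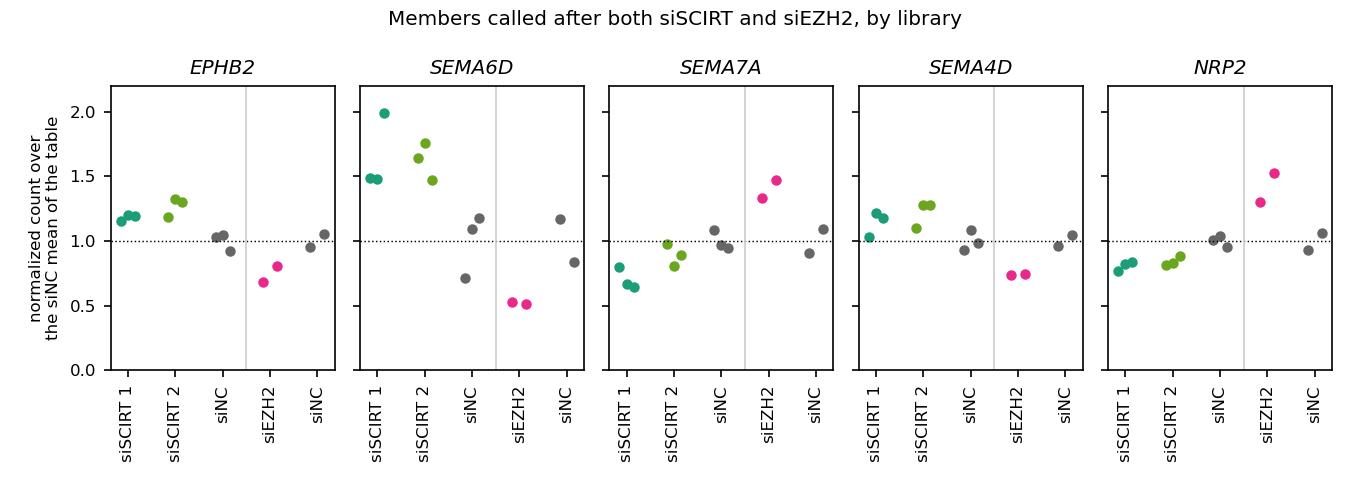
Values of EPHB2, SEMA6D, SEMA7A, SEMA4D and NRP2 in each siRNA library as a ratio to the mean of the siNC libraries of the same table, siSCIRT 1, siSCIRT 2 and siNC on the left and siEZH2 and siNC on the right. EPHB2 and SEMA6D lie above 1 in every siSCIRT library and below it in every siEZH2 library.

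Set beside the culture values, the members called in the siRNA tables showed no single order. NRP1, SEMA4B and SEMA4D, which were higher in spheres at both times, were lower with siEZH2, and SEMA4D was higher with siSCIRT. EPHB2, lower in spheres at both times, was lower with siEZH2 and higher with siSCIRT. PLXNB2, also lower in spheres at both times, was higher with siSCIRT. EPHA2 and SEMA7A, lower in spheres at both times, were lower with siSCIRT as well, and SEMA7A was higher with siEZH2. PLXNA3, PLXNB3 and ROBO1, higher in spheres at both times, were higher with siSCIRT. Over all comparisons, 40 of the 57 members (70.2%) were called at least once, beside 71.1% of the 13757 protein-coding genes listed in all 3 tables. The 17 never called included PLXNB1, PLXNC1, ROBO3, UNC5B and SEMA4G.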

How the data were processed

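RNA of MDA-MB-231 was sequenced in 19 libraries. Per the labels, total RNA was taken with TRI Reagent and libraries were made with TruSeq RNA v2, which does not mark strand. Per the submitters' processing notes, CASAVA 1.4, TopHat2, Partek and hg19 were used; the counting program is not given in the sources used here. The authors normalized each of the 3 tables separately. As deposited, the tables for culture and siSCIRT contain log2 values with the form of DESeq2's variance-stabilizing transform, and the deposited siEZH2 table holds normalized counts (signal: reads over 1 size factor per library). The design had assumed linear values throughout, so the transform was inverted. Dividing by each library's step gave whole reads for 100% of values in all 19 libraries (tolerance 0.05), and these served the alternatives below.

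Groups came from the sample labels. Only the columns of siSCIRT 2 carry a number, and the other siRNA columns of that table were read as siSCIRT 1 by inference. Tables were fitted singly with limma 3.58.1 in R 4.3.3 on log2 of the normalized count plus 1 (eBayes, trend and robust; mean of at least 10; all groups of the table; two-sided; Benjamini-Hochberg adjusted p under 0.05), in 8 comparisons. The fit was tested on simulated data. Alternatives were dropping the filter or raising it to a mean of 50, a pseudocount of 8, quantile normalization, a replicate block, fits on the compared groups alone, edgeR 4.0.16, DESeq2 1.42.0 and leaving out each library. Levels per length used GENCODE 29 exon lengths. Promoters are RefSeq's on GRCh38.p14, matched by symbol for 49 members; no coordinates of the authors' build are given.

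Named culture members changed at least 2-fold with an adjusted p under 0.05, a higher-group mean of 50 or more and no overlap; named siRNA members had an adjusted p under 0.05; others were added to account for a family or a pair. The members and lists were chosen with earlier results of these data known.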

Additional observations from a re-analysis of the deposited data

Results flagged for a closer look

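In 15 of 56 members the response to SCIRT silencing (mean of both siRNAs) differed from the response to EZH2 silencing in the test of the difference itself. Of all 15369 genes tested 15% were called in the same test. Over all genes called in both tables, 90.5% had opposite signs. Each value here is the log2 response to siSCIRT minus that to siEZH2 (limma, adjusted over all 15369 genes of both tables). The 5 members called in both tables with opposite signs were SEMA6D (1.65, adjusted p = 0.000357), EPHB2 (0.73, adjusted p = 0.000292), SEMA4D (0.67, adjusted p = 0.000894), NRP2 (-0.78, adjusted p = 9e-04) and SEMA7A (-0.83, adjusted p = 0.000386). A higher value after SCIRT than after EZH2 silencing was also found for the ligands SEMA5A (0.98, adjusted p = 0.0117), EFNB3 (0.97, adjusted p = 0.003), SEMA6A (0.74, adjusted p = 0.0212), SEMA4G (0.73, adjusted p = 0.036) and SEMA4B (0.65, adjusted p = 0.00201). MRPL43, on the other strand, shares 22.3% of the exon bases of SEMA4G, and reads there cannot be assigned. With siNC MRPL43 averaged 2790 (siSCIRT table) and 1670 (siEZH2 table), where SEMA4G averaged 248 and 162 over all libraries. The value was also higher after SCIRT silencing for the receptors PLXNB2 (0.50, adjusted p = 0.00423), PLXNA3 (0.47, adjusted p = 0.0144) and NRP1 (0.42, adjusted p = 0.0236). The receptors EPHA2 (-0.45, adjusted p = 0.00767) and EPHB6 (-1.08, adjusted p = 0.0318) had the lower value after SCIRT silencing. Experiment and siRNA target cannot be told apart beyond the use of each table's own siNC. The test was repeated with edgeR only and with no library left out. The 5 members named first were picked by their calls in these same data.

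PLXNA1, the A plexin with the highest level per length, was called lower at 16 h and higher at 5 d against the same adherent libraries, and the change between the sphere times was 0.73 ± 0.06 (adjusted p = 7.71e-13).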

How the results depend on the processing

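No member called in the reported fit or in an alternative reversed its direction under that alternative. Sign changes of members called in neither were not counted as reversals. Of the values of single members under the alternatives, 5230 kept their side of the threshold, 154 lost the call and 64 gained one. Other settings gave 24 to 29 members called at 16 h (28 reported), 21 to 27 at 5 d (25), 17 to 24 between the sphere times (24), 14 to 20 for siSCIRT 1 (16), 11 to 20 for siSCIRT 2 (14), 17 to 24 for their mean (17) and 5 to 9 for siEZH2 (7). The difference between the siRNA responses was called for 15 members by edgeR as well. Leaving out each library in turn gave 25 to 27 at 16 h, 18 to 25 at 5 d, 16 to 23 between sphere times, 10 to 15 for siSCIRT 1, 8 to 16 for siSCIRT 2, 11 to 19 for their mean, 0 to 0 between the siRNAs and 1 to 11 for siEZH2, where a lone library is assumed to vary like the other groups; the cause was not tested. Of the calls, 24 of 28 at 16 h, 17 of 25 at 5 d, 14 of 24 between sphere times, 8 of 16 for siSCIRT 1, 8 of 14 for siSCIRT 2, 11 of 17 for the siSCIRT mean and 1 of 7 for siEZH2 were lost under no alternative.

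The labels do not say that replicate numbers mark pairs, and the reported fits used no replicate block. In deviations from the group means, same-numbered libraries of the siSCIRT table correlated at 0.021 to 0.299 and differently numbered ones at -0.213 to 0.189. Same-numbered libraries of the siEZH2 table correlated at -0.085. Whether the numbers mark shared cultures was not tested. With the number as a replicate block, 28, 25 and 24 members were called in the culture comparisons, 20 with each siSCIRT, 24 with their mean, 5 with siEZH2 and 1 between the siRNAs (SEMA7A, adjusted p = 0.0497). Over all genes the block gave 54.5, 55.7 and 49.1% called in culture, 18.9% for siSCIRT 1, 18.7% for siSCIRT 2, 24.3% for their mean and 3.36% for siEZH2.

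Culture libraries were the shallowest, and members with few reads there, such as SEMA3E and SEMA5A, carry the widest errors. Replicates differed by more than counting noise in every group. Reads of exons shared with other genes cannot be assigned. The tables were normalized separately, so levels are comparable within a table, and each culture and siEZH2 group had 2 libraries.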

Other observations

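Levels per length differed between the tables, which come from separate experiments with their own normalization and were not tested against each other. In 28 members (49.1%) every siRNA library lay above every culture library, which held for 21.2% of the 13757 protein-coding genes listed in all 3 tables, and in 28 the ranges overlapped, against 68.9% of those genes. The siRNA libraries were also deeper. EPHA1 was the only member below in all, at 0.0775 to 0.195 RPKM in the siRNA libraries and 4.02 to 5.08 in the culture libraries. PLXNB1, the receptor of SEMA4D, was at 2.99 to 4.5 in the siRNA libraries and 0.111 to 0.243 in the culture libraries. SEMA4B was at 30.0 to 54.5 and 4.73 to 12.4, and EPHB6 at 0.114 to 0.46 and 0 to 0.0373. EPHA1 shares 82 exon bases with ZYX, which is abundant.

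SEMA3B, a class 3 semaphorin known as a candidate tumour suppressor, was listed as a processed transcript and so is no member. It stood at 301 and 252 normalized counts in adherent cells, 226 and 253 at 16 h and 306 and 296 at 5 d. With siSCIRT 1 it stood at 3490, 3020 and 3100 and with siSCIRT 2 at 3610, 2850 and 3600, against 3060, 2590 and 2630 with siNC, and with siEZH2 at 2940 and 3680, against 3540 and 3260 with siNC.

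A further 11 protein-coding genes with matching names were not listed in all 3 tables (EFNA2, EPHA3, EPHA8, EPHB1, NTN1, NTN3, NTNG1, SEMA4A, SEMA5B, UNC5C and UNC5D).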
